A study of Drosophila melanogaster with 6 samples.

Results

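The 8 genes described here encode the enzymes and subunits that write N6-methyladenosine (m6A) on RNA in Drosophila melanogaster and the proteins that read it. They were chosen by symbol, as CG7544, Ime4, CG7818, fl(2)d, vir, nito, YT521-B and CG6422, out of 17908 genes in the deposited table. The rule uses no measured value, but the set was chosen with earlier results of these data known. All 8 passed the filter on low counts, as did 11866 genes in all. RNA of larvae was sequenced in 6 libraries, 2 for each of 3 genotypes, with 15983161 to 17847161 counts each. Control larvae (fiomut/cyo) carried a fio mutant chromosome over the CyO balancer. Mutant larvae (fiomut/fiomut ;U6mut/U6+) had the fio mutation on both chromosomes and carried 1 mutant and 1 wild-type U6 allele. Rescue larvae (fiomut ,[U6+]/fiomut ;U6mut/U6+) had the mutant genotype with an added [U6+] element on a fio chromosome, read here as a copy of U6. All 3 groups thus carried at least 1 fio mutant chromosome, and no group was free of it. The labels give neither the sex nor the age of the larvae, nor the nature of the fio and U6 mutations, nor the animals or cultures behind the 2 libraries of each group. A p-value here therefore weighs a difference against the spread of these libraries alone, and that spread may be technical.

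m6A is the most abundant internal modification of messenger RNA. In flies it is written by a complex in which the product of Ime4, the fly METTL3, carries the catalytic site, the product of CG7818, METTL14, helps to bind RNA, and further subunits, among them the products of fl(2)d, vir and nito, bring the enzyme to its targets. Proteins with a YTH domain then bind the mark, YT521-B in the nucleus and CG6422 (Ythdf) in the cytoplasm, and in flies this pathway acts in the nervous system and in the splicing of Sxl, the master gene of sex determination. METTL16, encoded in the fly by CG7544, is a separate methyltransferase that works outside this complex, and in mammals it methylates U6 small nuclear RNA and the transcript of a SAM synthetase. Comparing the genotypes asks how much of each of these RNAs was present in larvae with and without an intact fio gene, and after U6 was added back.

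CG6422, the cytoplasmic reader, was lower in mutant than in control larvae, and it was the only one of the 8 genes to pass the test in that comparison. Of all tested genes 17.0% passed there. For 5 others, Ime4, fl(2)d, vir, nito and YT521-B, both mutant libraries lay below both control libraries without passing the test, and CG7544 and CG7818 overlapped between these groups. Both mutant libraries lay below both control libraries for 30.2% of all tested genes. In rescue larvae Ime4, vir and nito lay above both control libraries, likewise without passing, against 30.7% of all tested genes. CG6422 in rescue lay between mutant and control. Library totals of all 8 genes together were 294 and 366 CPM (counts scaled to library depth) in control, 232 and 250 CPM in mutant, and 319 and 370 CPM in rescue.

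Per gene length, the 8 genes were expressed at very different levels, given here as the authors' FPKM (fragments scaled to gene length and library depth), averaged over all 6 libraries with the SD between them. YT521-B was the highest at 30.4 ± 5.70 FPKM, above fl(2)d at 16.6 ± 2.84 FPKM in 6 of 6 libraries. CG6422 at 11.2 ± 5.14 FPKM and nito at 11.2 ± 2.44 FPKM could not be ranked, since CG6422 was the higher in only 2 of 6 libraries, both of them control. CG7818 followed at 9.43 ± 1.27 FPKM, below nito in 5 of 6 libraries. Ime4 at 6.37 ± 1.07 FPKM lay above vir at 5.50 ± 0.828 FPKM in 6 of 6 libraries, although their ranges overlap. CG7544 was the lowest at 1.41 ± 0.503 FPKM, and 16.5% of the tested genes had a lower mean FPKM than it, against 83.1% for YT521-B.

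**Figure D1:**
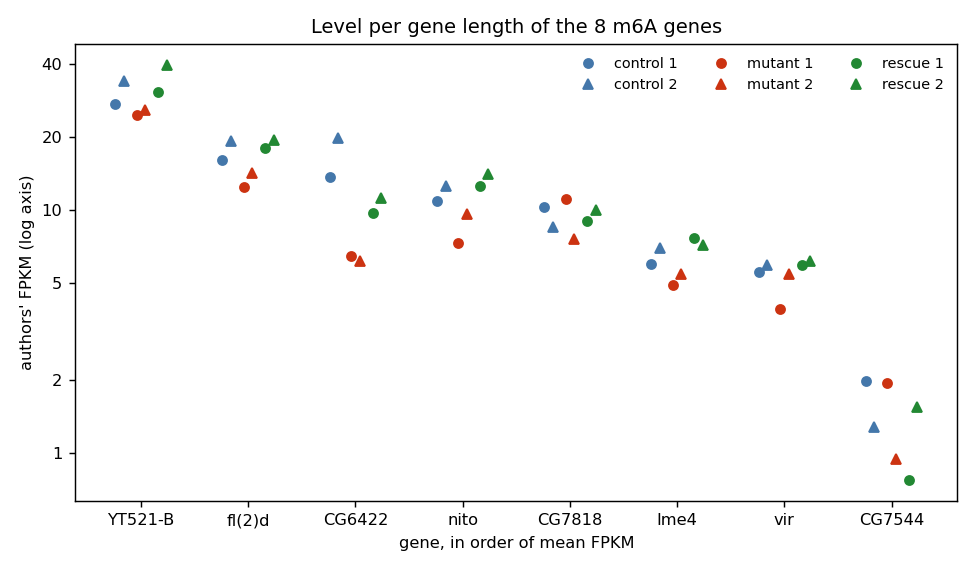
Authors' FPKM on a log axis for the 8 genes in each of the 6 libraries (colour, genotype; circle, library 1; triangle, library 2), in order of mean FPKM. YT521-B lay at or above 24.7 FPKM in every library, CG7544 at or under 1.97 FPKM, and the CG6422 points of the control libraries stood above those of the other genotypes.

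CG7544 (2R, 15147860 to 15149709, plus strand, Release 6) encodes METTL16, and it is the gene that the study's title points to. Control libraries held 41 and 35 of its reads, mutant libraries 52 and 25, and rescue libraries 22 and 46. Scaled to depth these are 3.08 and 2.06 CPM in control, 3.15 and 1.49 CPM in mutant, and 1.25 and 2.51 CPM in rescue, so the 3 groups overlap fully. The log2 difference of mutant against control was -0.14 with a 95% interval of -1.39 to 1.11 (edgeR adjusted p = 0.875), which spans both a loss and a gain of more than 2-fold. With so few counts and this spread between libraries a difference in CG7544 RNA was not detected. Since the labels do not say what the mutation removes, its counts are no check of the genotypes.

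Ime4 (3R, 24032157 to 24034257, plus strand), the catalytic subunit gene, had 11.6 and 13.97 CPM in control, 9.86 and 10.7 CPM in mutant and 15.4 and 14.5 CPM in rescue. Both mutant values lay below all others, and both rescue values above all others, but the steps were small. Mutant less control gave a log2 difference of -0.32 (SE 0.22, adjusted p = 0.358). Rescue less control gave 0.22 (SE 0.22, adjusted p = 0.641), and rescue less mutant gave 0.53 (SE 0.22, adjusted p = 0.143). CG7818 (2L, 8308427 to 8309961, plus strand), which encodes the METTL14 partner of that enzyme, had 14.2 and 12.2 CPM in control, 15.9 and 10.7 CPM in mutant and 13.0 and 14.4 CPM in rescue. Its mutant libraries were the highest and the lowest of the 6, and its log2 difference between mutant and control was 0.01 with an interval of -0.61 to 0.63. Of its exon bases 6.11% are shared with CG7810 on the opposite strand, and the strand setting of the counting is not given in the sources used here. Within a library, the FPKM ratio of Ime4 to CG7818 was 0.585 and 0.817 in control larvae, 0.442 and 0.718 in mutant larvae and 0.845 and 0.719 in rescue larvae. These ratios overlap between control and both other genotypes.

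The 3 accessory subunit genes were each lowest in the mutant libraries. fl(2)d (2R, 13819624 to 13824553, minus strand), the fly WTAP, had 46.8 and 58.1 CPM in control, 37.7 and 42.2 CPM in mutant and 54.6 and 59.1 CPM in rescue. nito (2R, 7962463 to 7969805, plus strand), a fly RBM15, had 48.0 and 56.9 CPM in control, 33.4 and 43.1 CPM in mutant and 57.5 and 64.5 CPM in rescue. vir (2R, 23360192 to 23366355, minus strand), the fly VIRMA, had 32.1 and 35.4 CPM in control, 23.3 and 31.8 CPM in mutant and 35.7 and 36.8 CPM in rescue. For each of the 3 genes both mutant libraries lay below both control libraries, for vir by a narrow margin set by mutant 2. The same held for 30.2% of all tested genes. No difference of mutant against control passed the test, with log2 values of -0.39 (SE 0.19, adjusted p = 0.198) for fl(2)d, -0.46 (SE 0.21, adjusted p = 0.171) for nito and -0.29 (SE 0.21, adjusted p = 0.372) for vir. The intervals, -0.85 to 0.06, -0.94 to 0.03 and -0.79 to 0.21, leave room for a loss of up to about 0.9 log2 units. Within a library the FPKM ratio of nito to fl(2)d stayed between 0.589 and 0.726, and that of vir to fl(2)d between 0.309 and 0.383, over all 6 libraries. Exons of CG8726 and CG14763 on the opposite strand share 16.6% of the nito exon bases, and their log2 differences of mutant against control were -0.05 (SE 0.19) and 0.33 (SE 0.32).

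YT521-B (3L, 3370451 to 3374170, minus strand), the nuclear YTH reader, had 92.9 and 119 CPM in control, 87.0 and 89.3 CPM in mutant and 108 and 140 CPM in rescue. The mutant values were the lowest, close below control 1, and the log2 difference of mutant against control was -0.27 (SE 0.23, adjusted p = 0.438). CG6422 (3R, 25033876 to 25039249, minus strand), the cytoplasmic YTH reader, had 599 and 1157 counts (45.0 and 67.9 CPM) in control larvae. Mutant larvae had 365 and 348 counts (22.1 and 20.8 CPM), and rescue larvae 587 and 705 counts (33.4 and 38.5 CPM). The 3 groups do not overlap, with mutant the lowest and control the highest. From 56.5 ± 16.2 CPM in control it fell to 21.4 ± 0.917 CPM in mutant (mean ± SD, n = 2), which is 2.64-fold lower. On the log2 scale the fitted difference was -1.40, with an SE of 0.24, an interval of -1.97 to -0.83 and an adjusted p of 0.0113, and it ranked 634 by p in this comparison. Control 2 lay above control 1 by 0.59 on the log2 CPM scale, and the difference was -1.07 without control 2 and -1.65 without control 1. It no longer passed the test without mutant 1 (adjusted p = 0.0708) or mutant 2 (adjusted p = 0.0757), with a range over 13 alternatives of 1.08e-05 to 0.0757. The log2 difference was then -1.44 and -1.36, close to the value with all libraries, and the 1 mutant library left was assumed to vary like the other groups.

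**Figure D2:**
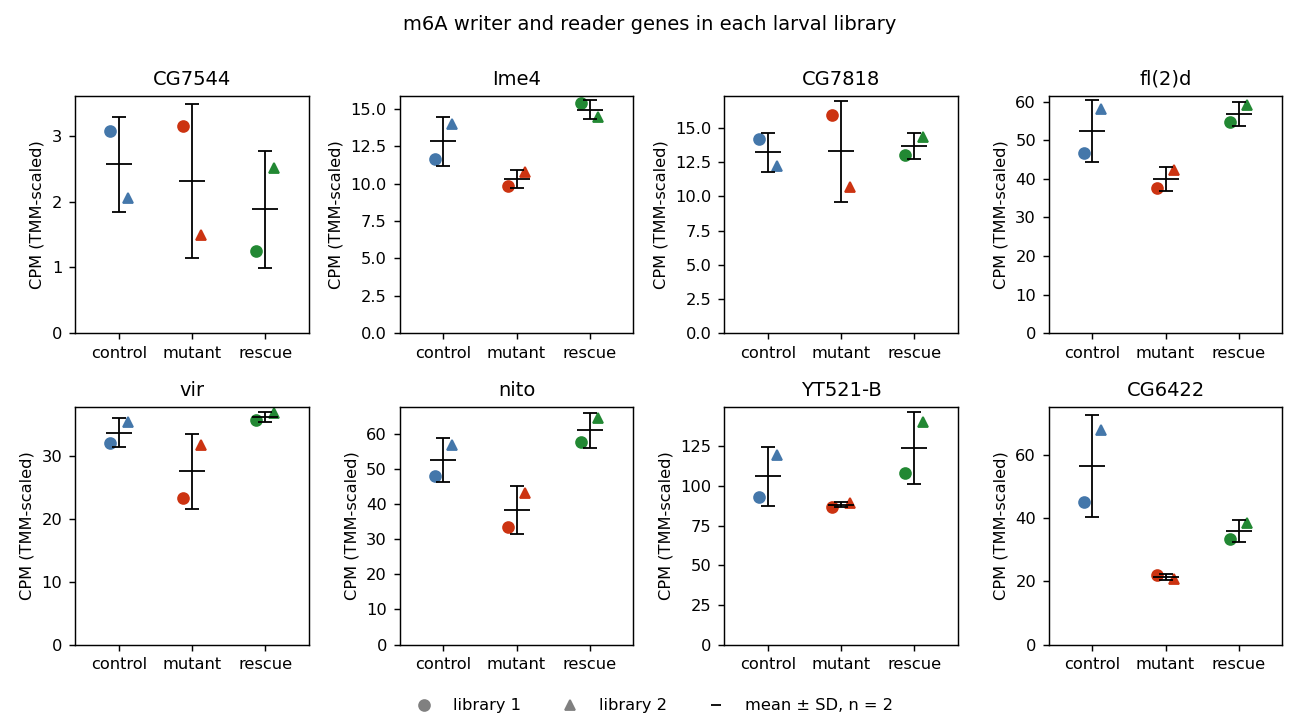
CPM of the 8 genes in each library, with linear axes from 0 (circle, library 1; triangle, library 2; bar, mean ± SD of 2 libraries). For CG6422 the mutant libraries at 22.1 and 20.8 CPM lay below all others, and for CG7544 and CG7818 the groups overlap.

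Of the 8 genes, then, 1 was called between mutant and control, against 17.0% of all tested genes called in either direction and 7.04% called lower. That share of 1 in 8 is near the background. Values of both mutant libraries lay below both control libraries for 6 of the 8, against 30.2% of all tested genes, a description with no test. The median log2 difference was -0.30 over the 8 genes and -0.02 over all tested genes.

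In rescue against control, 0 of the 8 genes passed edgeR's test, against 0.640% of all tested genes. DESeq2 and limma likewise called 0, and CG6422 alone had an unadjusted p under 0.05. Its log2 difference of -0.65 (SE 0.24, interval -1.21 to -0.09, adjusted p = 0.208) shrank to -0.32 without control 2 and grew to -0.91 without control 1. Both rescue libraries lay above both control libraries for Ime4, vir and nito, against 30.7% of all tested genes, and below them for CG6422, against 23.5%. Among the other genes the log2 differences ran from -0.44 for CG7544 to 0.23 for YT521-B, with intervals of -1.70 to 0.82 and -0.30 to 0.75.

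Rescue against mutant likewise gave 0 of 8 genes called by edgeR, against 16.1% of all tested genes, with 4 of the 8 at an unadjusted p under 0.05 and 0 called by limma. DESeq2 called CG6422 (adjusted p = 0.0458) and nito (adjusted p = 0.0442), both higher in rescue. It called 2734 of all 11866 tested genes, a share near that of 2 in 8. The edgeR values were 0.75 (SE 0.24, adjusted p = 0.0763) for CG6422, 0.67 (SE 0.21, adjusted p = 0.0675) for nito and 0.51 (SE 0.19, adjusted p = 0.115) for fl(2)d. With only the mutant and rescue libraries in the edgeR fit, CG6422 passed (adjusted p = 0.0369), as 1 of 2560 genes called out of 11653 tested. For 6 of the 8 genes both rescue libraries lay above both mutant libraries, against 33.8% of all tested genes. Any pair of the 3 comparisons shares 1 group's libraries, here the mutant ones with mutant against control. The median log2 difference was 0.50 over the 8 genes and 0.0026 over all tested genes.

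**Figure D3:**
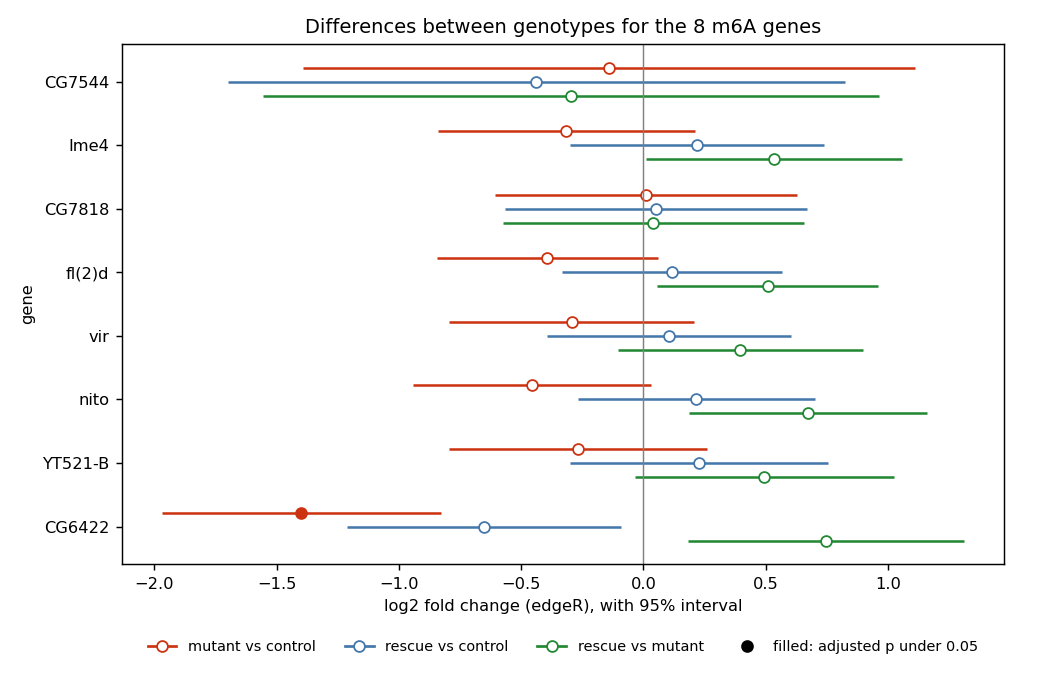
Fitted log2 fold changes of the 8 genes in the 3 comparisons, with 95% intervals; a filled point marks an adjusted p under 0.05. CG6422 in mutant against control, at -1.40, is the filled point, and the CG7544 intervals are the widest.

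The balance between the nuclear and the cytoplasmic reader does not depend on library scaling, since both are read in the same library. The FPKM ratio of YT521-B to CG6422 was 2.01 and 1.71 in control larvae, 3.84 and 4.19 in mutant larvae and 3.15 and 3.55 in rescue larvae. All 4 mutant and rescue libraries had a higher ratio than both control libraries, and the rescue ratios lay below the mutant ones. Mutant and rescue larvae share both the fio mutation on both chromosomes and the U6 mutation, which cannot be told apart here. The ratio in part restates the CG6422 difference, since YT521-B passed in no comparison. It was not tested, and the share of other gene pairs that separate the groups was not counted.

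**Figure D4:**
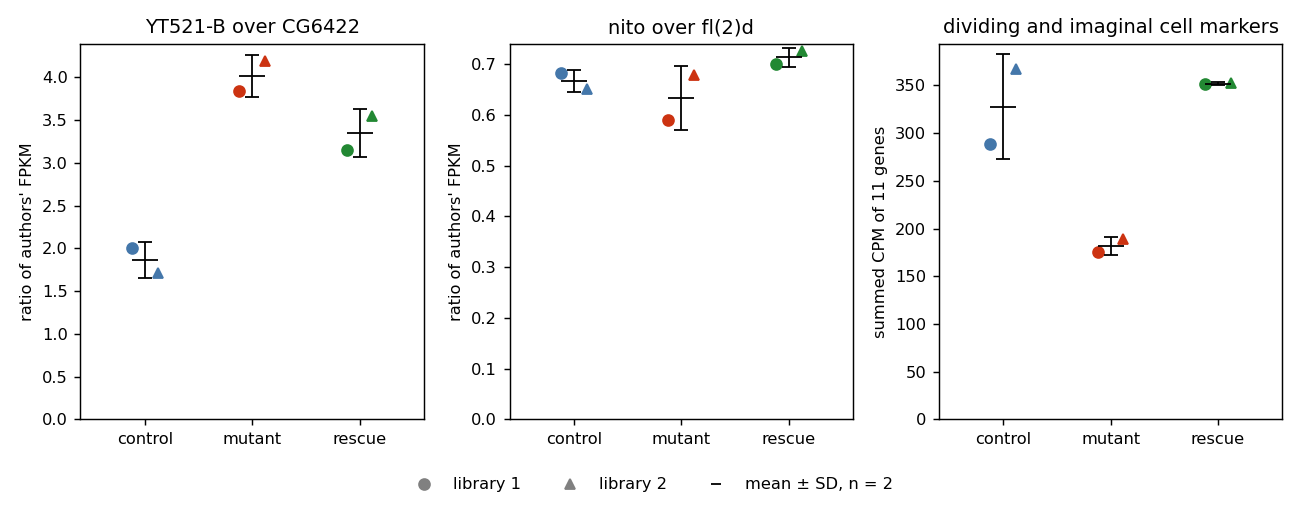
Left and middle, FPKM ratios of YT521-B to CG6422 and of nito to fl(2)d in each library; right, summed CPM of 11 markers of dividing and imaginal cells (points, libraries; bars, mean ± SD of 2). The reader ratio stayed at or under 2.01 in control and was at least 3.15 elsewhere, nito to fl(2)d ranged from 0.589 to 0.726, and the marker sum was lowest in mutant.

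Whole larvae mix many tissues, and in such bulk samples fewer cells of a type and less RNA per cell cannot be told apart. Nor can a difference in larval stage, since the labels give no age. The 6 fat body markers summed to 92507 and 93539 CPM in control, 64798 and 70802 CPM in mutant and 55011 and 78343 CPM in rescue. Of the 6, 2 were called lower in mutant than in control, against 7.04% of all tested genes. They were Lsp2 and Fbp1 (log2 differences of -2.13 and -4.11), and Fbp1 had 2270.6 and 13224.5 CPM in the 2 control libraries. Markers of the gut and the salivary glands differed as well. All 9 gut enzyme markers were called higher in mutant than in control, against 9.94% of all tested genes, with sums of 1669 and 1657 CPM in control, 22581 and 23746 CPM in mutant and 3433 and 3110 CPM in rescue, although near-identical copies such as Amy-d and Amy-p can share reads. Of the 6 salivary gland markers 5 were called lower, against 7.04% of all tested genes, with sums of 2574 and 7470 CPM in control, 23.3 and 434 CPM in mutant and 13155 and 12918 CPM in rescue. The other salivary marker, Sgs3, had an adjusted p of 0.121, and 1 of the 6 was at 0 counts in mutant 1. Muscle markers summed to 75392 and 44106 CPM in control, 29355 and 29782 CPM in mutant and 17629 and 16059 CPM in rescue. Of the 7, 4 were called lower in mutant than in control, against 7.04% of all tested genes. In rescue against control 1 was called lower, against 0.287% of all tested genes.

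The 11 markers of dividing and imaginal cells summed to 289 and 367 CPM in control, 175 and 189 CPM in mutant and 351 and 353 CPM in rescue. Of these, 5 were called lower in mutant than in control, against the same 7.04% of all tested genes, and none was at 0 counts. The 10 neuronal markers summed to 445 and 492 CPM in control, 334 and 378 CPM in mutant and 388 and 506 CPM in rescue, with none at 0. Of these, 4 were called lower in mutant than in control, elav, nSyb, fne and scrt, against 7.04% of all tested genes. Syt1, para and Rbp9 had small positive log2 differences of 0.07, 0.04 and 0.19 that did not pass. Rbp9 was called lower in rescue than in mutant (log2 -1.29, adjusted p = 0.0108). The dividing cell, neuronal and salivary sums were thus lowest in mutant, as were CG6422 and most of the writer genes, and the gut sums were highest there. The part of these tissues, or of larval stage, in the differences of the 8 genes was not tested. In rescue the dividing cell sums lay within the control range, while CG6422 lay below both control libraries without passing the test. The sums hide markers that differ in direction. Of the 11, 6 had negative and 5 positive log2 differences of rescue against control, from -0.55 for Orc1 to 0.80 for vg, and none passed.

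The groups also differed in the chromosomes they carried. Of the 8 genes 5 lie on chromosome 2, where control larvae carried the balancer, and Ime4 and CG6422 lie on 3R, at 521.8 and 476.6 kb from the U6 genes snRNA:U6:96Aa, snRNA:U6:96Ab and snRNA:U6:96Ac. The U6 mutation is listed for mutant and rescue larvae and not for control, though the labels do not name the U6 gene that carries it. Among the 298 tested genes within 1 Mb of these U6 genes, a distance chosen after the values were seen, 46 were called lower and 27 higher in mutant than in control, which is 15.4% lower against 7.04% over all tested genes. Called in either direction were 24.5%, against 17.0% of all tested genes. In rescue against control 2 were lower and 1 higher, together 1.01% against 0.640% of all tested genes. In rescue against mutant 16.4% were called, against 16.1% of all tested genes. An effect of fio on CG6422 and an effect of the chromosome with the U6 mutation cannot be told apart in mutant against control.

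The genes whose pattern was most like that of CG6422 over the 6 libraries, by Pearson correlation of log2 CPM, were vig2 (0.994), JhI-21 (0.992), Orc1, a subunit gene of the origin recognition complex (0.990), CG17786 (0.988) and CG1840 (0.987). For vig2, control libraries held 2156 and 4133 counts, mutant libraries 1674 and 1540, and rescue libraries 2488 and 2704, so control 2 was the highest there as well. It was lower in mutant than in control by a log2 difference of -1.07 (adjusted p = 0.0281). Orc1 is also 1 of the 11 dividing cell markers above. Of 11865 genes compared, 55 correlated above 0.95, and all of these points share the same 6 libraries and their scaling. vig2 and CG17786 lie on 3R, 84.1 and 815.2 kb from CG6422. Of the 55 genes 8 lie within 1 Mb of the U6 genes, 14.5% against 2.5% of all genes compared. The 55 were picked by these same values, and the distance was chosen after they were seen. This share is a description and was not tested. CG31115, which lies inside CG6422 on the opposite strand and shares no exon base with it, held 28 and 30 counts in control larvae, 42 and 17 in mutant larvae, and 7 and 33 in rescue larvae.

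The other subunits of the writer complex did not pass the test either. Hakai, a RING-finger protein gene, had 13.9 and 24.2 CPM in control, 18.9 and 15.6 CPM in mutant and 25.0 and 23.5 CPM in rescue. CG7358 (Flacc), the fly ZC3H13, had 59.0 and 79.9 CPM in control, 60.8 and 68.7 CPM in mutant and 97.2 and 78.0 CPM in rescue. Mutant values of both lay within the control range. For both genes both rescue libraries lay above both mutant libraries, as for 33.8% of all tested genes. The log2 differences of rescue over mutant were 0.49 for Hakai and 0.44 for CG7358, and neither gene passed in any comparison (lowest adjusted p = 0.222, CG7358 in rescue against mutant). The sign of both mutant to control differences turned without control 2.

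Among the genes of other adenosine methyltransferases, CG11399 (Pcif1), whose mammalian counterpart methylates the adenosine next to the cap, differed between rescue and mutant. Its levels were 21.3 and 34.2 CPM in control, 14.8 and 17.0 CPM in mutant and 39.1 and 53.4 CPM in rescue. It was higher in rescue than in mutant, with a log2 difference of 1.54 (SE 0.29, adjusted p = 0.0151), and this was lost without mutant 1, mutant 2 or rescue 2 (adjusted p = 0.109, 0.0787 and 0.0796). Other genes share 4.65% of its exon bases. CG12975 (Trmt112), whose protein activates several methyltransferases, had log2 differences of -0.66 (SE 0.25, adjusted p = 0.115) in mutant over control and 0.11 (SE 0.25) in rescue over mutant. CG9666 (Mettl5) is listed at 0 counts in every library. Its start and end match the RefSeq but not the Ensembl annotation. Whether the 0 counts reflect its expression or its gene model cannot be told. AlkB, a gene of the AlkB family, and Fmr1 and Imp, a pair of RNA-binding protein genes, passed in no comparison.

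Of the RNAs that METTL16 methylates in mammals, the fly counterpart of the SAM synthetase transcript, Sam-S, had 272 and 249 CPM in control, 675 and 474 CPM in mutant and 249 and 244 CPM in rescue. Both mutant libraries stood far above the rest, with a log2 difference of 1.14 (SE 0.25, adjusted p = 0.0234) over control. That call missed the threshold without control 2 or mutant 1 (adjusted p = 0.0808 and 0.0883). Rescue was lower than mutant by a log2 difference of -1.22 (SE 0.25, adjusted p = 0.0208), and leaving out mutant 1, rescue 1 or rescue 2 ended that call (adjusted p = 0.0861, 0.101 and 0.129). U6 RNA itself cannot be followed in polyadenylated RNA, with at most 4 counts of snRNA:U6:96Aa in a library.

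In the sex determination and dosage cascade, where m6A acts on Sxl splicing, gene counts do not show splicing. Of the 5 genes Sxl, tra, tra2, dsx and msl-2, 1 was called between mutant and control, a share near the 17.0% of all tested genes. msl-2, a dosage compensation subunit gene that Sxl represses in females, rose from 15.5 and 16.0 CPM in control to 27.2 and 26.8 CPM in mutant larvae, a log2 difference of 0.78 (SE 0.20, adjusted p = 0.0387). Rescue libraries held 351 and 444 counts, a mean of 22.1 CPM, and 12.1% of the exon bases of msl-2 are shared with other genes. That call did not hold under 9 of 13 alternatives, among them each left-out library (highest adjusted p = 0.124), while the log2 difference stayed between 0.64 and 0.80 in all 13. tra, whose splicing Sxl controls, had 7.14 and 8.22 CPM in control, 4.29 and 5.25 CPM in mutant and 11.1 and 10.5 CPM in rescue, and was higher in rescue than in mutant, with a log2 difference of 1.18 (SE 0.25, adjusted p = 0.0239). l(3)73Ah on the opposite strand shares 8.59% of its exon bases. Leaving out any of the 4 mutant and rescue libraries raised that adjusted p to between 0.0734 and 0.121. For Sxl, mutant less control gave a log2 difference of -0.41 (SE 0.20, adjusted p = 0.188), and rescue less mutant gave 0.52 (SE 0.20, adjusted p = 0.114). The sex of the larvae is not given, and the part of the share of males in these differences was not tested. The 9 male germline markers summed to 56.5 and 33.8 CPM in control, 47.7 and 39.6 CPM in mutant and 28.9 and 27.3 CPM in rescue. Of these 1, bam, was called lower in mutant than in control, against 7.04% of all tested genes. The 5 germline markers of both sexes summed to 17.7 and 11.3 CPM in control, 10.5 and 11.2 CPM in mutant and 8.26 and 6.66 CPM in rescue. Of the 4 tested, 0 were called in that comparison, against 17.0% of all tested genes. The share of males and the amount of germline cannot be told apart by these sums.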

How the data were processed

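Polyadenylated RNA of larvae was measured in 6 libraries of 3 genotypes. The deposited table holds raw read counts per gene. In the deposited FPKM table these counts are divided by gene length and a library denominator, and TMM-scaled library sizes found here were 0.979 to 1.02 times that denominator. For the aligner, counter and strand setting, the sources used here give nothing. Positions are in the deposited table, and all 8 genes have the start and end of the RefSeq Release 6 and Ensembl BDGP6 annotations.

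The counts were tested with the edgeR 4.0.16 quasi-likelihood test (R 4.3.3) in 1 fit of all libraries by group, with TMM factors, filterByExpr at a minimum count of 10, and Benjamini-Hochberg adjustment over the 11866 genes tested, with calls made under 0.05. CPM are counts scaled to TMM library sizes, with a prior count of 2 for log2 CPM. The SE is the absolute log2 fold change over the square root of F. Libraries of a group differed by far more than counting noise (chi-square per degree of freedom 58.7 to 111). Alternatives used DESeq2 1.42.0, limma 3.58.1 on log2 FPKM with a pseudocount of 1 or 0.1, other factors, no filter, no mitochondrial genes, only the groups compared, a replicate block, and each library left out, where a group's 1 remaining library is assumed to vary like the other groups. The genes and lists were chosen with earlier results of these data known. All 8 genes are named throughout, along with listed pathway genes that passed, Hakai, CG7358 and Sam-S, and the 5 genes most like each called gene; values of other listed or overlapping genes were named after they were seen.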

Additional observations from a re-analysis of the deposited data

How the results depend on the processing

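Between mutant and control the count of the 8 genes called was 1, and 0 to 1 with a library left out; it was lost without either mutant library. Between rescue and mutant it was 0, but 1 with only the 2 groups in the fit and 2 with DESeq2. Those settings called 2560 of 11653 and 2734 of 11866 tested genes. Between rescue and control it was 0 under all 13 alternatives. Of 312 alternative values for the 8 genes 287 kept their direction and side of the threshold, 20 changed sign, 3 newly passed and 2 no longer passed; the cause was not tested. The sign changes were in CG7544, CG7818 and fl(2)d, none of them called. With a library left out, CG7544 ranged from -0.77 to 0.30 for mutant against control and from -0.88 to 0.33 for rescue against mutant, fl(2)d from -0.024 to 0.28 for rescue against control, and Hakai and CG7358 from -0.48 to 0.31 and -0.29 to 0.13 for mutant against control. CG7818 ranged over the same from -0.30 to 0.27 for mutant against control, -0.054 to 0.17 for rescue against control and -0.22 to 0.35 for rescue against mutant. For mutant against control it was -0.011 with RLE factors, -0.048 with upper-quartile factors, -0.011 with DESeq2, and -0.026 and -0.030 with limma. It was -0.057 for rescue against control and -0.0091 for rescue against mutant with upper-quartile factors, and -0.0026 for rescue against control with only those 2 groups.

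Over all genes, mutant against control gave 2015 calls, and 1216, 611 and 692 without control 2, mutant 1 and mutant 2. Rescue against mutant gave 1908, and 400, 632, 936 and 639 without mutant 1, mutant 2, rescue 1 and rescue 2. Rescue against control gave 76 (42 higher and 34 lower, or 42 and 58 with upper-quartile factors), 478 unfiltered, 11 with only those groups, 1026 with DESeq2, and 50 and 778 without control 1 and control 2. Deviations of same-numbered libraries from their group means correlated at 0.016 to 0.055, which cannot show whether they shared a batch. The labels link these libraries only by a replicate number. With that number as a replicate block CG6422 kept -1.37 (adjusted p = 0.0142), CG7818 was -0.0025 and msl-2 kept 0.78 but missed the threshold (adjusted p = 0.0521). Calls over all genes were then 1831 (mutant and control), 117 (rescue and control) and 1767 (rescue and mutant). CG7544 had the fewest counts of the 8 genes, 22 to 52 a library. Its coefficient of variation between libraries as fitted by edgeR, 0.363, was also the largest of the 8.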
